A study of Mus musculus with 40 samples.

Results

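Amphiregulin (Areg), meteorin-like (Metrnl), proenkephalin (Penk) and vascular endothelial growth factor A (Vegfa) are secreted factors tied to tissue repair. Il1rl1, Il18r1, Il18rap and Il1r2 encode receptors of the interleukin 1 (IL-1) family, whose ligands are known as alarmins. These 8 genes were chosen by symbol and role, with earlier results of these data known, so counts over them are not independent evidence. They were read across all libraries from a table of 55421 genes. Regulatory T cells (Treg) are CD4+ T cells defined by the transcription factor Foxp3, and conventional T cells (Tconv) are CD4+ T cells without it. In wild-type (WT) mice, which were perfused so that blood was washed out of the organs, both populations were sorted by a Foxp3-Thy1.1 reporter, positive for Treg and negative for Tconv, at 2000 cells per library. Cells came from 10 sources, each with 3 Treg libraries and 1 Tconv library: 4 solid organs (lung, liver, kidney, pancreas), the intraepithelial (IEL) and lamina propria (LPL) lymphocytes of the small intestine, Peyer's patch, lymph node, spleen and blood. Blood, spleen and lymph node are called the lymphoid sources here, and kidney, liver, lung, pancreas, IEL and LPL the tissues, so that 18 tissue Treg libraries were set against 9 lymphoid Treg libraries. All groups share the genotype and the reporter. The age of the mice is not given in the sources used here, and the labels name a digestion of the tissue without its reagents. Reporter-negative CD4+ cells are not 1 cell type, and each Tconv group is a lone library. Which libraries come from the same mouse is not in the labels, so p-values measure the spread between these libraries, which may be technical.

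Repair factors act on cells around the T cell. Areg is a ligand of the epidermal growth factor (EGF) receptor and is shed from the cell surface, Metrnl is a secreted cytokine-like protein, Penk is the precursor from which enkephalins, the opioid peptides, are cut, and Vegfa drives the growth of blood vessels. Alarmins are released by stressed or dying barrier cells. Il1rl1 encodes ST2, the receptor of IL-33, known from Treg of non-lymphoid organs. Il18r1 binds IL-18 and Il18rap is the accessory chain that makes that receptor signal, whereas Il1r2 binds IL-1 but lacks the signalling domain, so that it acts as a decoy.

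Promoter windows are shown for Areg and Il1rl1, the repair factor and the receptor on which most of the results turn. RefSeq windows of the build GRCm38.p6, which is mm10, run from 250 bases before to 50 bases after each start, and 11 of the 32851 windows belonged to 7 of the 8 genes. Capitals mark the cyclic AMP response element TGACGTCA in the Areg promoter (chr5:91139498-91139585, plus strand), which begins 61 bases before the start, and the GATA motif AGATAA, or its reverse complement TTATCT, in the windows of both annotated Il1rl1 starts (chr1:40429320-40429398 and chr1:40439486-40439571, plus strand), where it begins 217 and 103 bases before the start.
Areg: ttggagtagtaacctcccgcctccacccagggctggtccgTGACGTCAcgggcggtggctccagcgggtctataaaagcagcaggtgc
Il1rl1, upstream start: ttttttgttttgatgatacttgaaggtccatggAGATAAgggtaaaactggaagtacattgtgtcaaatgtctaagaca
Il1rl1, downstream start: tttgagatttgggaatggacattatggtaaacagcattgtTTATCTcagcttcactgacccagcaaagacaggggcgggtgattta
Over all windows and both strands, TGACGTCA was found in 1.79% and AGATAA in 11.2%, the latter also in 1 window of Vegfa. The motif TGANTCA of the AP-1 factors was in 7.81% of all windows and in none of these 11. A match describes the letters of a window and shows no binding.

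Levels are given as CPM, counts of a gene per 1000000 counts of its library, with totals scaled by TMM (trimmed mean of M values). Because the kit reads the 3′ ends of transcripts, CPM is not divided by gene length, and levels are compared between libraries for the same gene only. Total counts ran from 12197980 to 28823493 per library, and 14411 to 19167 genes had at least 1 count. Foxp3 lay between 68.4 and 306 CPM in the 30 Treg libraries and between 0.158 and 6.66 CPM in the 10 Tconv libraries. The 6 T cell markers summed to between 3557 and 5718 CPM in tissue Treg, and the 10 mast cell and basophil markers, which matter because those cells also carry ST2, summed to at most 12.01 CPM, with Mcpt4, Tpsb2, Tpsab1, Cma1, Fcer1a, Ms4a2 and Mcpt8 at 0 in all tissue Treg libraries. RNA of other cells was present in some libraries. The 10 markers of pancreatic acinar cells summed to between 22503 and 121048 CPM in pancreas Treg and to between 1.57 and 18.7 CPM in lymphoid Treg, and the 14 myeloid markers ran from 62.9 to 1779 CPM in tissue Treg and from 89.1 to 195.7 CPM in lymphoid Treg. In 3 sources a library stood apart from its own group. Kidney Treg replicate 1 held 2274 CPM of the 8 kidney tubule markers against 47.8 and 32.0 in the other two, and lung Treg replicate 1 and Peyer's patch Treg replicate 1 held 18198 and 11182 CPM of 23 early response genes against 3302 to 3981 CPM in the other libraries of those sources. The part of these other cells in the results was not tested. In bulk RNA, fewer cells that use a gene and less of its RNA per cell cannot be told apart.

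All 8 genes differed between the Treg of the 10 sources, where 34.5% of the 17909 genes tested did (edgeR quasi-likelihood F test, Benjamini-Hochberg adjusted p below 0.05, as in all tests here). The sources that held the most of each gene were not the same. Mean levels were highest in kidney for Areg, Metrnl and Vegfa, in LPL for Penk, in lung for Il1rl1, in liver for Il18r1, in IEL for Il18rap and in lymph node for Il1r2. For Vegfa the place of kidney rested on its replicate 1, since the other kidney libraries lay below all LPL libraries. Blood Treg had the lowest mean of Areg, Metrnl, Penk, Il18rap and Il1r2, and Vegfa was at 0 in all blood and liver Treg libraries.

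**Figure D1:**
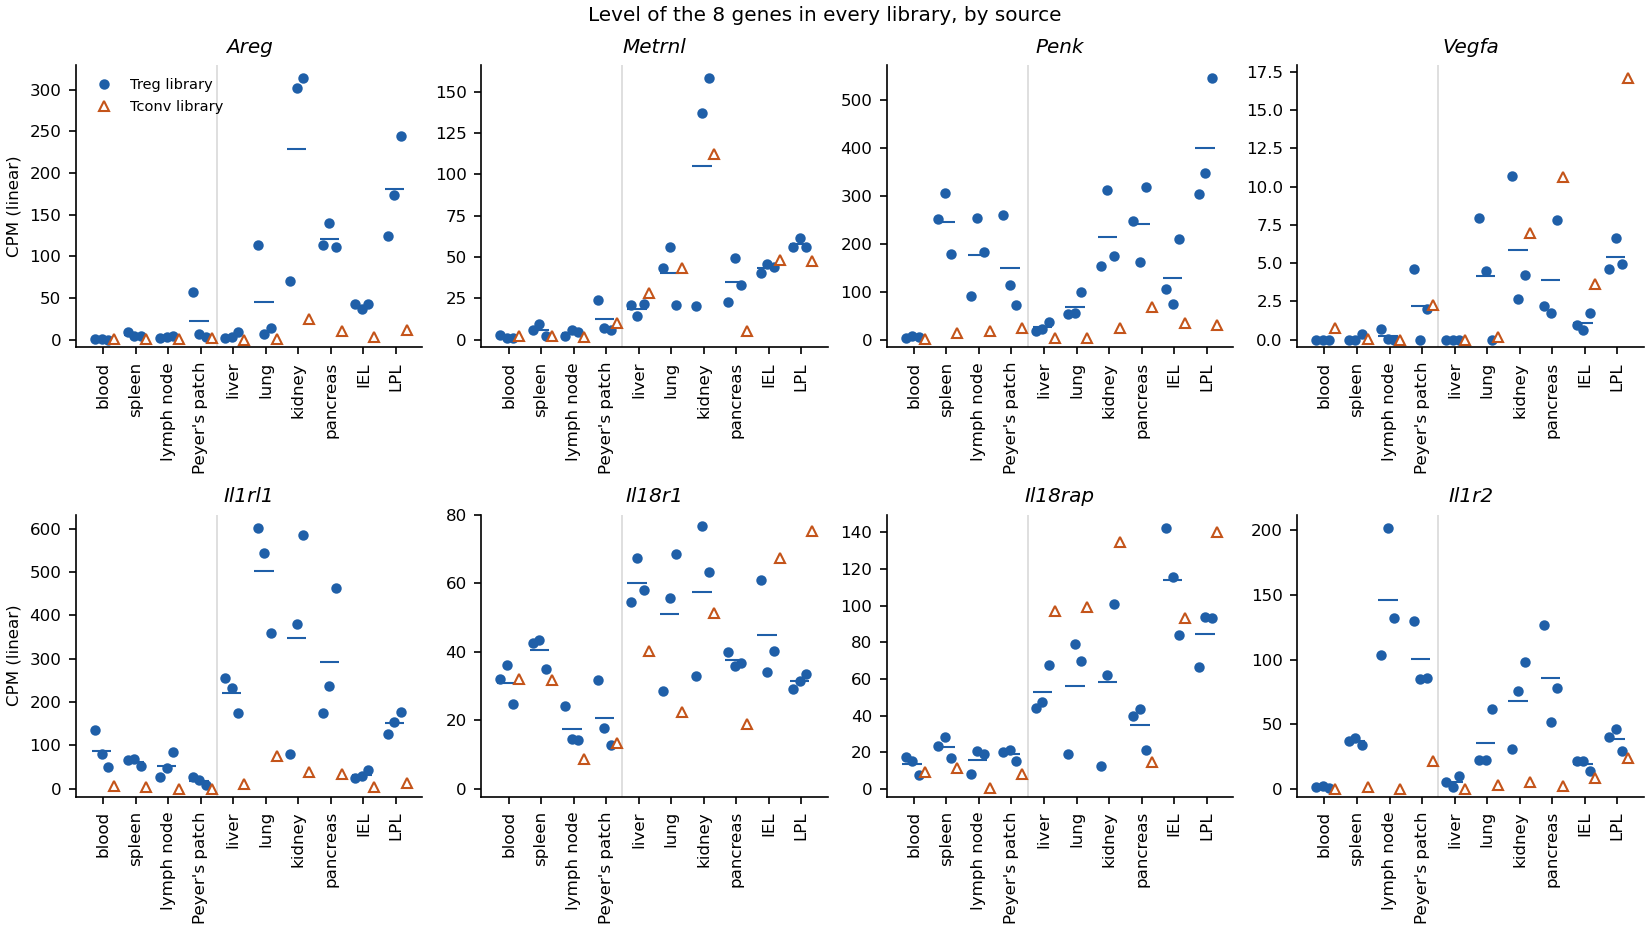
Level of each gene in all 40 libraries on a linear CPM axis, by source; circles are Treg libraries with a line at their mean, triangles the Tconv library, and the grey line parts the 6 tissues from the other sources. Areg reaches 314 CPM in kidney and stays at or below 8.996 CPM in liver, while Penk and Il1r2 are also high in spleen or lymph node.

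Set together, tissue Treg had more of 6 of the 8 genes than lymphoid Treg and less of none, where 11.9% of all genes tested were higher and 9.98% lower. With counts summed per source, 6 against 3, none of the 8 and no gene in all passed by edgeR, where 2753 of 18000 genes had an unadjusted p below 0.05, and the adjusted p was 0.123 for Metrnl and 0.222 for Areg. The fold changes of Areg and Metrnl were a log2 of 5.16 ± 0.62 (SE, adjusted p 3.1e-06) and 3.76 ± 0.37 (adjusted p 2.6e-07). Il18rap rose by 1.89 ± 0.28 (adjusted p 3.0e-05), Il1rl1 by 1.57 ± 0.28 (adjusted p 0.00023), Penk by 1.05 ± 0.25 (adjusted p 0.0033) and Il18r1 by 0.72 ± 0.17 (adjusted p 0.0029). Il1r2 gave 0.65 ± 0.29, with an adjusted p of 0.111, and passed without blood Treg replicate 4, at 0.90. For Vegfa the fit gave no estimate, because liver and blood Treg held no count. Which lymphoid source served as the reference mattered for 4 genes. Penk was 4.48 higher on the log2 scale against blood alone but -0.42 against lymph node and -0.92 against spleen, and Il1r2 was 4.45 against blood and -2.23 against lymph node. Il1rl1 missed the threshold against blood alone, at 1.17 (adjusted p 0.080), and Il18r1 missed it against blood at 0.58 (adjusted p 0.157) and against spleen at 0.18 (adjusted p 0.750). Areg, Metrnl and Il18rap passed against each of the 3.

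By tissue, kidney Treg had more of all 8 genes, where 12.2% of genes were higher, and liver Treg of 4, where 0.955% were higher. Lung Treg had more of 6 (all genes: 8.64%), as did pancreas Treg (7.64%), IEL Treg (13.5%) and LPL Treg (17.4%). All of these comparisons use the same 9 lymphoid Treg libraries, so they are not independent of each other. The 6 genes were not the same in each tissue. Il1r2 rose in kidney and pancreas, at 1.79 ± 0.42 and 2.11 ± 0.41, and gave -1.85 ± 0.51 in liver, with an adjusted p of 0.0760. Metrnl was the gene called in all 6 tissues, from 2.53 ± 0.46 in liver to 5.01 ± 0.46 in kidney. With spleen alone as the reference, the counts were 3 of 8 in kidney (4.11% of all genes), 0 in liver (0.609%), 2 in lung (4.56%), 3 in pancreas (1.46%), 2 in IEL (4.39%) and 3 in LPL (7.39%).

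**Figure D2:**
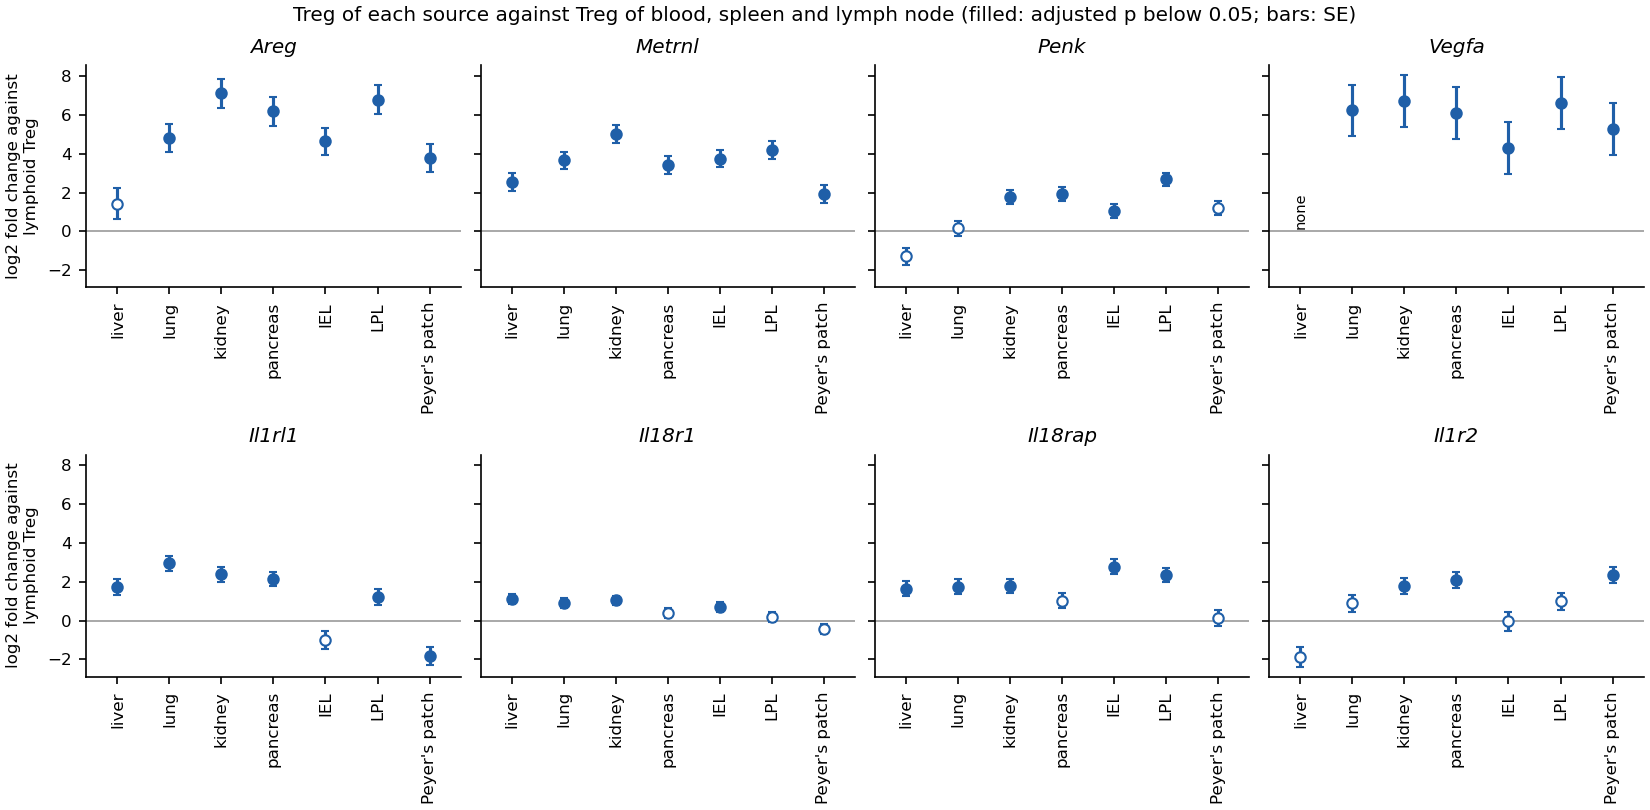
Log2 fold change of each gene in the Treg of 7 sources against lymphoid Treg (blood, spleen and lymph node), with bars of 1 SE; filled circles passed an adjusted p of 0.05 and "none" marks a comparison without an estimate, and the Vegfa points are fitted values that are no bound, since blood held no count. Areg and Metrnl lie far above 0 in most tissues, and Il1rl1 lies below 0 in IEL and Peyer's patch but above it in the other sources.

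Areg (ENSMUSG00000029378.5, mm10 chromosome 5, 91139599 to 91148432, plus strand) had its highest levels in kidney, LPL and pancreas Treg. In kidney the 3 libraries held 70.9, 302 and 314 CPM, in LPL 124, 174 and 245 CPM, and in pancreas 113, 139 and 111 CPM. All of these lay above the highest lymphoid library, at 8.51 CPM in spleen. IEL Treg held 43.0, 36.7 and 42.2 CPM. Lung and Peyer's patch each had a library that stood apart, replicate 1, with 114 CPM in lung against 6.77 and 14.0, and with 57.7 CPM in Peyer's patch against 7.05 and 2.50. Liver Treg held 1.43, 3.04 and 8.996 CPM, which overlapped spleen at 8.51, 4.69 and 4.88 CPM and lymph node at 2.38, 2.87 and 4.20 CPM, and the liver difference of 1.44 ± 0.79 did not pass (adjusted p 0.496). Blood Treg, at 0.497, 0.238 and 0 CPM, was the only source whose range did not overlap that of its neighbour in the order of means. Neighbours from kidney at 229 ± 137 CPM (SD, n = 3), LPL at 181 ± 60.6, pancreas at 121 ± 15.7, lung at 44.8 ± 59.7, IEL at 40.7 ± 3.42, Peyer's patch at 22.4 ± 30.6, spleen at 6.03 ± 2.15 and liver at 4.49 ± 3.98 down to lymph node at 3.15 ± 0.940 overlapped in their ranges. Kidney, LPL, pancreas, IEL and lung passed against lymphoid Treg, at log2 fold changes of 7.10 ± 0.74, 6.79 ± 0.74, 6.18 ± 0.73, 4.63 ± 0.72 and 4.80 ± 0.72. The lung value fell to 2.64 without lung replicate 1, which still passed, and missed the threshold with limma-voom, at 2.96, and against spleen alone, at 2.93. In Peyer's patch Areg gave 3.76 ± 0.72 with all 3 libraries and 1.52 without replicate 1, which did not pass.

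The early response genes, which cells switch on soon after a stimulus, moved with Areg. Of the 23 genes of that list, 21 were higher in tissue Treg than in lymphoid Treg and none lower (all genes: 11.9% and 9.98%). Their median log2 fold change was 3.17, against 0.03 over all genes tested. Among them, Junb rose by 3.33 ± 0.34 and Fos by 4.79 ± 0.54, both subunits of AP-1, and the nuclear receptor Nr4a1 by 3.17 ± 0.35. The sum of the list ran from 2329 to 3459 CPM in lymphoid Treg, from 2835 to 3253 CPM in liver Treg and from 17655 to 34368 CPM in kidney Treg. By the mean log2(CPM + 1) of the list, the 30 Treg libraries fell into 2 separate ranges. In 16 libraries the mean was between 4.49 and 6.02 and Areg was at most 14.0 CPM, and in the other 14 it was between 7.61 and 9.42 and Areg was at least 36.7 CPM. Lung replicate 1 and Peyer's patch replicate 1 were in the upper range, apart from the other libraries of their sources. Pearson's r between Areg and the list was 0.864 in the lower range and 0.901 in the upper range, across libraries that share their source within triplets. Within the lower range the blood libraries lay apart, with list means of 4.49 to 4.62 and Areg of at most 0.497 CPM. The other libraries of that range began at a list mean of 5.24, and r without blood is not given here. Over the 10 Tconv libraries r was 0.936. The part of these genes, or of what moves them, in the Areg result was not tested.

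**Figure D3:**
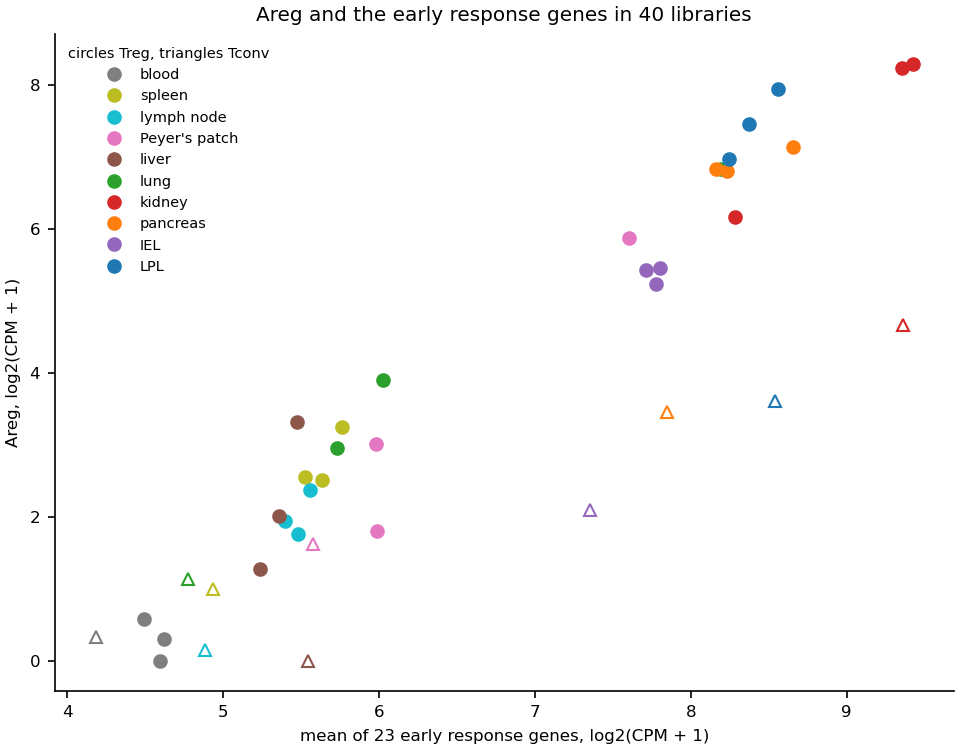
Areg against the mean of 23 early response genes, both as log2(CPM + 1), for 30 Treg libraries (circles) and 10 Tconv libraries (triangles), coloured by source. Liver and 2 of the 3 lung Treg libraries lie with the lymphoid ones at the lower left, and the Tconv libraries with a mean above 7 lie below all Treg libraries above 7.

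Areg is also 1 of the ligands of the EGF receptor family. Of 11 tested genes of the other EGF ligands, receptors and sheddases, 2 were higher in tissue Treg and none lower, with a median of 0.41, beside 11.9% higher and 9.98% lower over all genes. These were the ligands Tgfa, at 6.81 ± 1.40 from a mean of 0.068 CPM in lymphoid to 2.37 CPM in tissue Treg, and Hbegf, at 3.30 ± 0.91 from 0.85 to 13.4 CPM. Of 11 other growth and repair factors tested, 6 were higher and none lower, with a median of 0.89. Among these, the cytokine Lif rose by 4.72 ± 0.68, the granulin precursor Grn by 1.47 ± 0.23 and Tgfb1 by 0.65 ± 0.13.

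Metrnl (ENSMUSG00000039208.15, chromosome 11, 121701544 to 121716306, plus strand) was present in the Treg of all 6 tissues, liver included. Kidney Treg held 20.2, 137 and 158 CPM, with replicate 1, the library with the most tubule RNA, far below the other two. LPL Treg held 55.9, 61.3 and 56.0 CPM, IEL Treg 40.3, 45.5 and 43.7 CPM, lung Treg 43.6, 56.2 and 21.0 CPM and pancreas Treg 22.7, 49.4 and 32.99 CPM. Liver Treg, low in Areg, held 20.8, 14.3 and 21.3 CPM. No tissue library overlapped the lymphoid ones, of which the highest was a spleen library at 9.23 CPM and the lowest a blood library at 0.763 CPM. In the order of means, LPL did not overlap IEL and pancreas did not overlap liver, while all other neighbours did. Peyer's patch Treg held 24.1, 6.72 and 5.90 CPM, and its difference from lymphoid Treg was 1.91 ± 0.47 with all libraries and 0.95 without replicate 1, which did not pass.

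Penk (ENSMUSG00000045573.9, chromosome 4, 4133531 to 4138819, minus strand) was high in tissue and in lymphoid Treg alike. Spleen Treg held 252, 306 and 179 CPM and lymph node Treg 90.3, 254 and 184 CPM, which overlapped kidney Treg at 154, 311 and 175 CPM and pancreas Treg at 247, 161 and 319 CPM. The highest levels were in LPL, at 304, 348 and 545 CPM. IEL Treg held 105, 74.4 and 209 CPM, Peyer's patch Treg 260.4, 113 and 71.7 CPM, and lung Treg 52.5, 54.7 and 99.5 CPM. Liver Treg, at 18.5, 22.2 and 36.5 CPM, and blood Treg, at 3.59, 8.22 and 5.77 CPM, lay below all other Treg libraries. Both ranges stood apart from their neighbours, and the rest of the order overlapped. LPL, pancreas and kidney passed at 2.68 ± 0.35, 1.94 ± 0.35 and 1.76 ± 0.35 with the 3 lymphoid sources together. Against spleen alone LPL gave 0.71, pancreas -0.03 and kidney -0.21, and against lymph node alone these were 1.21, 0.47 and 0.29, of which none passed. IEL gave 1.05 ± 0.36 (adjusted p 0.0410), a call that was lost when any of 11 of the 30 libraries was left out, with 0.53 without IEL replicate 3. Liver, at -1.29 ± 0.42, had an adjusted p of 0.152. DESeq2 called it lower at -1.32, and it was lower against spleen alone at -3.26. The long noncoding gene A830012C17Rik overlaps Penk on the other strand and had at most 49 counts in a library. Of the other opioid peptide genes, receptors and processing enzymes, 5 of 11 were tested and none was called.

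Vegfa (ENSMUSG00000023951.17, chromosome 17, 46016993 to 46032369, minus strand) was at a low level throughout, and its 3 libraries per source varied widely. Kidney Treg held 10.7, 2.65 and 4.20 CPM, LPL Treg 4.64, 6.62 and 4.97 CPM, lung Treg 7.97, 4.52 and 0 CPM and pancreas Treg 2.23, 1.72 and 7.79 CPM. Peyer's patch Treg held 4.59, 0 and 2.02 CPM and IEL Treg 0.924, 0.603 and 1.76 CPM. In kidney, lung and Peyer's patch the highest library was replicate 1, the one that stood apart from its own group. The other kidney libraries lay below all LPL libraries. Liver and blood were at 0 in all 3 Treg libraries, lymph node had 0.681, 0.0494 and 0 CPM, and spleen had 0.371 CPM in 1 library and 0 in the others. LPL, kidney, pancreas and IEL Treg were above the lymphoid ones in all libraries except IEL replicate 2, at 0.603 CPM. For a group at 0, 3 counts over the group were taken as the floor, a limit that covers counting error only. By this floor Vegfa was at least 119-fold higher in kidney than in liver Treg, at least 113-fold higher in LPL and at least 21.7-fold higher in IEL. The kidney value pools all its libraries, replicate 1 included. Against lymphoid Treg it passed in kidney, LPL, lung, pancreas, IEL and Peyer's patch, with adjusted p between 0.00095 in LPL and 0.0267 in Peyer's patch. None of the 6 passed against spleen alone or lymph node alone. The IEL call was also lost without IEL replicate 3, and that of Peyer's patch when any of 7 libraries was left out (Peyer's patch replicates 1 and 3, blood replicates 4 and 5, lymph node replicate 7, spleen replicates 2 and 3). No fold is given here, since blood held no count.

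The receptors and ligands around Vegfa and the genes that rise when oxygen is short were read beside it. Of 8 tested VEGF family genes, the receptor Flt1 was higher in tissue Treg, at 3.58 ± 1.27, and the co-receptor Nrp1, known from Treg that arise in the thymus, was lower, at -0.60 ± 0.17. Of 15 tested hypoxia-inducible genes, 4 rose and 1 fell (median 0.17), beside the same shares of 11.9% and 9.98% over all genes. Egln3, which marks hypoxia-inducible factors for decay, rose by 1.99 ± 0.24, Hif1a by 1.05 ± 0.16 and Ndrg1 by 1.26 ± 0.21, while the kinase Pdk1 fell by 0.70 on the log2 scale.

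Il1rl1 (ENSMUSG00000026069.15, chromosome 1, 40429570 to 40465415, plus strand) was highest in the solid organs. Lung Treg held 603, 545 and 359 CPM, kidney Treg 80.1, 379 and 585 CPM, pancreas Treg 174, 238 and 464 CPM and liver Treg 256, 233 and 176 CPM. Except for kidney replicate 1, all of these lay above the highest lymphoid library, a blood library at 135 CPM. LPL Treg held 125, 154 and 176 CPM. In the lymphoid sources, blood held 135, 80.3 and 49.5 CPM, spleen 67.6, 68.1 and 52.1 CPM, and lymph node 27.6, 47.3 and 84.2 CPM. IEL Treg, at 25.5, 28.8 and 44.5 CPM, and Peyer's patch Treg, at 27.4, 19.8 and 8.93 CPM, had the lowest means. Every neighbour in the order of means overlapped the next.

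Against lymphoid Treg, Il1rl1 passed in lung at 2.95 ± 0.38, in kidney at 2.39 ± 0.38, in pancreas at 2.15 ± 0.38, in liver at 1.73 ± 0.39 and in LPL at 1.22 ± 0.39. It was lower in Peyer's patch, at -1.83 ± 0.47 (adjusted p 0.0270), and gave -0.99 ± 0.45 in IEL, with an adjusted p of 0.119. Lung, kidney and pancreas passed when any library was left out and against each of the 3 references. The liver call was lost in 6 of 30 leave-outs (blood replicates 4 and 5, liver replicates 1, 3 and 4, spleen replicate 4), with values from 1.62 to 1.88, and against blood or spleen alone. The LPL call was lost without LPL replicate 2 or 3, at 1.18 and 1.07, and that of Peyer's patch without its replicate 2 or 3, at -1.86 and -1.49. IEL fell short of the threshold with all libraries and passed without kidney Treg replicate 1, at -1.01, as it did with limma-voom at -1.05.

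Over all genes tested, 11.9% were higher in tissue Treg than in lymphoid Treg and the median was 0.03. Genes known from ST2-positive Treg of tissues were all higher in tissue Treg, 10 of 10, with a median of 2.18. Of these, the suppressive cytokine Il10 rose by 5.54 ± 0.48, the transcription factor Nfil3 by 3.19 ± 0.35, the nuclear receptor Rora by 2.47 ± 0.26 and the chemokine receptor Ccr8 by 2.30 ± 0.22. The list was written with earlier results of these data known and is not independent evidence of a direction. Of the type 2 cytokines, 3 of 4 were tested and none was called.

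Il18r1 (ENSMUSG00000026070.15, chromosome 1, 40465552 to 40500854, plus strand) had the narrowest range of the 8 genes by ratio, from 12.9 to 76.6 CPM over the 30 Treg libraries. Liver Treg held 54.6, 67.4 and 58.0 CPM, kidney Treg 32.8, 76.6 and 63.1 CPM, lung Treg 28.6, 55.6 and 68.5 CPM and IEL Treg 60.8, 34.1 and 40.1 CPM. Spleen Treg, at 42.6, 43.4 and 35.1 CPM, were above pancreas at 39.8, 36.0 and 36.8 CPM by their mean, and LPL held 29.2, 31.6 and 33.4 CPM beside blood at 32.1, 36.1 and 24.7 CPM. The lowest were Peyer's patch, at 31.7, 17.7 and 12.9 CPM, and lymph node, at 24.0, 14.6 and 14.1 CPM. The sole gap between neighbours was that from pancreas to LPL. Liver, kidney, lung and IEL passed at 1.10 ± 0.25, 1.04 ± 0.25, 0.89 ± 0.25 and 0.71 ± 0.26. None of these passed against spleen alone, where they gave 0.56, 0.50, 0.35 and 0.17, or against blood alone, where they gave 0.96, 0.90, 0.75 and 0.57. The IEL call (adjusted p 0.0498) was lost in 24 of 30 leave-outs, with 0.43 without IEL replicate 1. The liver call was lost in 7, between 1.004 and 1.16, the lung call in 3 (blood replicate 5, lung replicates 5 and 6), with 0.59 without lung replicate 6, and the kidney call without kidney replicate 3, at 0.78.

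Il18rap (ENSMUSG00000026068.11, chromosome 1, 40515362 to 40551705, plus strand), the partner chain, followed another order and was highest in the gut wall. IEL Treg held 143, 116 and 83.8 CPM and LPL Treg 66.6, 94.1 and 93.3 CPM. Kidney Treg held 12.7, 61.9 and 101 CPM and lung Treg 19.2, 79.3 and 69.7 CPM, in each case with replicate 1 low, and liver Treg held 44.1, 47.4 and 67.8 CPM. Pancreas Treg, at 39.97, 43.7 and 21.2 CPM, overlapped spleen at 23.4, 28.3 and 16.9 CPM. Peyer's patch at 20.3, 21.4 and 15.3 CPM, lymph node at 8.30, 20.8 and 18.9 CPM and blood at 17.4, 15.1 and 7.48 CPM were the lowest. Liver and pancreas were the neighbours whose ranges did not overlap. IEL and LPL passed against lymphoid Treg at 2.77 ± 0.38 and 2.34 ± 0.38, also against each reference alone. Kidney, lung and liver passed at 1.78 ± 0.38, 1.75 ± 0.38 and 1.65 ± 0.39, but not against spleen alone, at 1.34, 1.31 and 1.21. The kidney call was lost without kidney replicate 5, at 1.14 (from 1.78), and the liver call in 8 of 30 leave-outs, with values from 1.43 to 1.76. Pancreas gave 1.03 ± 0.39, with an adjusted p of 0.0981.

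Il1r2 (ENSMUSG00000026073.13, chromosome 1, 40074079 to 40125231, plus strand), the decoy, was highest in lymph node and Peyer's patch Treg. Lymph node held 103, 202 and 132 CPM, Peyer's patch 130.0, 84.9 and 85.7 CPM, pancreas 127, 52.1 and 77.7 CPM and kidney 30.6, 75.3 and 97.9 CPM. LPL at 39.8, 46.0 and 29.6 CPM, spleen at 37.1, 39.3 and 33.7 CPM and lung at 22.1, 22.5 and 62.1 CPM followed, then IEL at 21.6, 21.2 and 14.1 CPM. Liver, at 5.06, 1.42 and 9.70 CPM, and blood, at 1.33, 2.57 and 0.334 CPM, lay below all others. Lung did not overlap IEL and IEL did not overlap liver, while all other neighbours overlapped. Against lymphoid Treg it passed in Peyer's patch at 2.34 ± 0.41, in pancreas at 2.11 ± 0.41 and in kidney at 1.79 ± 0.42. Against lymph node alone these 3 turned to -0.54, -0.77 and -1.10, and without kidney replicate 5 the kidney call was lost, at 1.43. Liver was called lower by DESeq2, at -1.88, by limma-voom, at -2.13, and without blood replicate 5, at -2.03. The genes Gm16894 and Gm37347 overlap Il1r2 and had at most 91 and 114 counts in a library.

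Of the IL-1 family ligands and soluble inhibitors, 5 of 6 were tested in Treg, and none passed between tissue and lymphoid Treg. Of the 4 other receptor chains of the family, 3 had an estimate and none of these passed. For Il1r1 the fit gave none, and its level was 8.49 to 11.1 CPM in LPL Treg and at most 0.724 CPM in lymphoid Treg. Of 18 shared signalling genes, 5 were higher in tissue Treg and none lower (all genes: 11.9% and 9.98%), with a median of 0.27. The kinase Mapkapk2 rose by 0.72 ± 0.11, Tollip, which binds the receptor complex, by 0.80 ± 0.14, the kinase Irak2 by 0.67 ± 0.14 and the NF-kB subunit Rela by 0.42 ± 0.12.

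Peyer's patch is a lymphoid organ of the gut wall and was kept apart from both sets. Its Treg had more of 4 of the 8 genes than lymphoid Treg (Areg, Metrnl, Vegfa and Il1r2), where 2.94% of genes were higher, and less of Il1rl1, where 0.625% were lower. Penk, at 1.23 ± 0.36, had an adjusted p of 0.0565. It gave 0.54 without Peyer's patch replicate 1, and passed in 5 of 30 leave-outs (IEL replicate 3, Peyer's patch replicate 3, blood replicate 4, lung replicate 6, lymph node replicate 7), at 1.22 to 1.57. DESeq2 called it higher, at 1.20. Without kidney, lung and Peyer's patch Treg replicate 1 together, a choice made after seeing the data, 1 of the 8 was higher, Il1r2 at 2.10, and 2 were lower, Il1rl1 at -2.22 and Il18r1 at -0.89. Of all genes, 2.23% were higher and 0.97% lower without those libraries. Neither Areg nor Metrnl passed without Peyer's patch replicate 1 alone, at 1.52 and 0.95.

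Between the gut wall (IEL and LPL) and the 4 solid organs, 2 genes were higher in gut Treg, where 13% of genes were, and Il1rl1 was lower, where 10.6% were. Penk gave 1.22 ± 0.28 (adjusted p 0.0021), Il18rap 1.01 ± 0.30 (adjusted p 0.0162) and Il1rl1 -2.19 ± 0.35 (adjusted p 6.8e-05). The lowest, median and highest Il1rl1 levels were 25.5, 84.9 and 176 CPM in the 6 gut wall libraries and 80.1, 308 and 603 CPM in the 12 solid organ libraries. The groups overlapped through LPL on the 1 side and kidney replicate 1, pancreas replicate 1 and liver replicate 4 on the other. Il18rap missed the threshold without IEL replicate 1, at 0.91. Areg gave 0.83 ± 0.53 (adjusted p 0.282), and passed without lung replicate 1, at 1.37. Without the 3 libraries together Areg passed at 1.26 and Il18r1 was lower, at -0.55. Epithelial markers of the intestine moved with this split, with 12 of 13 tested higher in gut Treg, and so did myeloid markers, with 8 of 13 lower; their part in these results was not tested.

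IEL and LPL Treg did not differ in any of the 8 genes by edgeR, where 0.0112% of all genes were higher and 0.0335% lower in IEL. At an unadjusted p below 0.05, which 7.18% of all genes reached in either direction, Areg, Penk and Il1rl1 were lower in IEL. Il1rl1 gave -2.21 ± 0.54 (adjusted p 0.120), Penk -1.63 ± 0.48 (adjusted p 0.245) and Areg -2.16 ± 0.92 (adjusted p 0.613). In each of these genes the 3 IEL libraries lay below the 3 LPL libraries. The genes were picked here by the p of the same comparison, so this separation adds no evidence. Its share over all genes is not given here. DESeq2 called 1 of the 8 lower in IEL, where it called 0.475% of all genes, and limma-voom 3, where it called 3.27%. With edgeR, Il1rl1 was called without kidney Treg replicate 1, at -2.21. Without kidney, lung and Peyer's patch replicate 1 together, edgeR called Il1rl1, at -2.22, and Areg, at -2.17, lower in IEL.

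Treg and Tconv were compared within sources. Treg had more of Areg, Penk, Il1rl1 and Il1r2 and less of none of the 8, where 9.88% of the 14983 genes tested were higher and 7.28% lower. The log2 fold changes were 3.62 ± 0.53 for Areg, 3.02 ± 0.28 for Penk, 3.72 ± 0.34 for Il1rl1 and 3.09 ± 0.52 for Il1r2. The Tconv library lay below all 3 Treg libraries in 10 of 10 sources for Penk, Il1rl1 and Il1r2 and in 9 of 10 for Areg. The share of all genes with such a pattern is not given here, so these counts of sources are a description. Penk ran from 0.428 CPM in blood to 68.8 CPM in pancreas Tconv, Il1rl1 from 0.222 CPM in Peyer's patch to 75.0 CPM in lung Tconv, and Il1r2 from 0 in liver to 23.7 CPM in LPL Tconv. Areg ran from 0 in liver to 24.3 CPM in kidney Tconv.

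The remaining 4 genes were at like levels in both populations or varied in direction. Metrnl gave 0.30 ± 0.30, with a 95% interval from -0.29 to 0.88, Il18r1 0.20 ± 0.19, from -0.17 to 0.56, Il18rap 0.11 ± 0.32, from -0.52 to 0.74, and Vegfa -0.92 ± 0.82, from -2.53 to 0.68. Metrnl in Tconv was 112 CPM in kidney, 48.0 in IEL, 47.4 in LPL, 43.5 in lung, 28.4 in liver and 4.94 in pancreas, and 1.39 CPM in lymph node. Pancreas Treg held more than pancreas Tconv, at 22.7 to 49.4 CPM. The Metrnl level of Tconv lay below all 3 Treg libraries in 4 sources, within their range in 4 and above it in 2. Il18rap in Tconv was above all 3 Treg libraries in 4 sources, among them LPL at 140.1 and kidney at 135 CPM. It was within their range in 2 sources and below it in 4. Vegfa in Tconv was above all 3 Treg libraries in 4 sources, with 17.1 CPM in LPL and 10.6 CPM in pancreas Tconv, within their range in 6 and below it in 0. Vegfa was called lower in Treg by limma-voom, at -1.59. For these counts of sources too, the share of all genes is not given here, so they are a description.

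Within the tissues 4 of the 8 genes were higher in Treg, where 6.12% of 22976 genes were, and within the lymphoid sources also 4, where 3.77% were. In tissues these were Areg at 4.88 ± 0.86, or 3.94 without liver Tconv, Penk at 2.98 ± 0.33, Il1rl1 at 3.29 ± 0.37 and Il1r2 at 4.06 ± 0.50, or 2.90 without liver Tconv, which held no count of either Areg or Il1r2. In lymphoid sources they were Penk at 3.77 ± 0.51, Il1rl1 at 5.09 ± 0.61, Il1r2 at 6.36 ± 0.76 and Il18rap at 2.16 ± 0.52 (adjusted p 0.0102), whereas Areg, at 2.42 ± 1.23, had an adjusted p of 0.380. The Tconv groups have 1 library each and were assumed to vary as the Treg groups do. Leaving out a Tconv library takes the Treg of its source out of these differences too, since only sources with both were averaged. Il18rap was the gene whose tissue effect differed between Treg and Tconv, where 0.649% of genes had a smaller effect in Treg, at -2.50 ± 0.59 (adjusted p 0.0346). For Vegfa and Il1r2 the fit gave no estimate of this difference. Vegfa also had none within the tissues or within the lymphoid sources. Both Il18rap results turned on the lymph node pair, whose Tconv library, replicate 8, had 0.534 CPM. Without it, Il1rl1 and Il1r2 still passed, at 4.08 and 4.86, but the lymphoid difference of Il18rap was 0.79 and the difference of the tissue effects -1.14, and neither passed. The latter call was lost in 9 of 40 leave-outs in all, with values from -2.47 to -2.33 in the other 8. For Areg the difference of the tissue effects was 2.46 ± 2.05, and for Metrnl -0.47 ± 0.64, with a 95% interval from -1.73 to 0.79.

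Tissue Tconv were set against lymphoid Tconv with the source as the replicate, 6 against 3 libraries. By edgeR none of the 8 genes and 0% of the 14453 genes tested were higher. At an unadjusted p below 0.05, 6 of the 8 were higher, where 14.7% of all genes reached that p in either direction. DESeq2 called 6 of the 8 higher, where it called 6.32% of all genes, and limma-voom 1, where it called 4.52%. Metrnl had the smallest p, at 4.68 ± 0.85 (adjusted p 0.0917), and lay at 4.94 to 112 CPM in tissue and 1.39 to 2.17 CPM in lymphoid Tconv without overlap. Il18rap, at 3.83 ± 0.93 (adjusted p 0.134), lay at 14.4 to 140.1 CPM and at 0.534 to 11.2 CPM, also without overlap. Both passed without pancreas Tconv, the lowest tissue library for each, at 4.92 and 4.06. The share of all genes without overlap between these groups is not given here.

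The 4 receptor genes lie in 1 cluster on chromosome 1, all on the plus strand and within 477.627 kb, in the order Il1r2, Il1r1, Il1rl2, Il1rl1, Il18r1 and Il18rap, with 136 bases between the end of Il1rl1 and the start of Il18r1. Neighbours in the cluster differed in which population held more. By the log2(CPM + 1) of the Treg mean minus that of the Tconv library, Il1r2 and Il1rl1 were higher in Treg in 10 of 10 sources, at 0.67 to 6.92 and 2.72 to 5.30. Il1rl2, the receptor of IL-36, was lower in Treg in 10 of 10, at -3.72 to -1.01, and Il1r1, the signalling receptor of IL-1, was higher in Treg in 1 of 10, at -2.72 to 0.12. Il18r1 and Il18rap were higher in Treg in 7 and 6 of 10, at -1.24 to 1.16 and -1.19 to 3.47. For these counts of sources, with 1 Tconv library in each, the share of all genes is not given here. In the fit over all sources, Il1r1 and Il1rl2 were lower in Treg, at -3.93 ± 0.64 and -2.89 ± 0.44, and Sigirr, an inhibitory member of the family on another chromosome, was higher, at 0.54 ± 0.12. Il1r1 was 69.6 CPM in LPL, 44.7 CPM in Peyer's patch and 16.8 CPM in IEL Tconv, and its highest Treg library had 12.2 CPM.

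**Figure D4:**
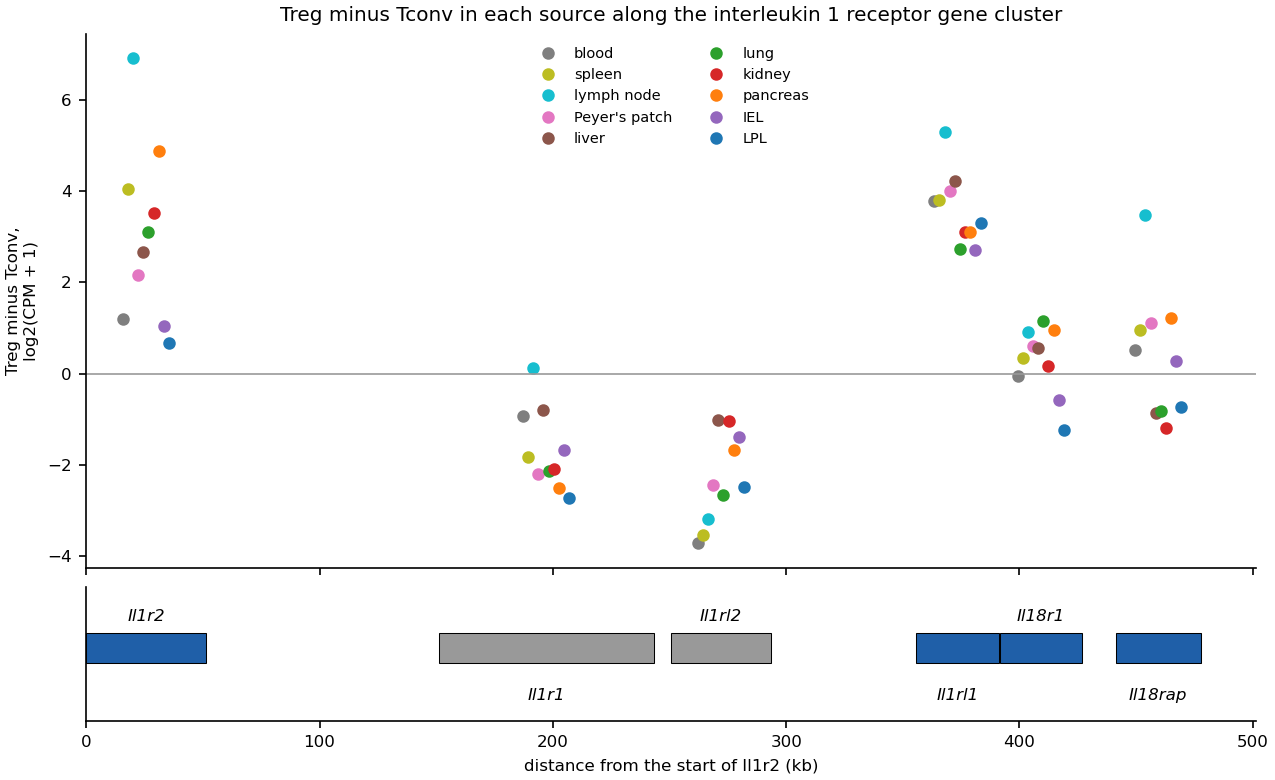
Upper panel: difference between the Treg mean and the Tconv library of each source, in log2(CPM + 1), for the 6 genes of the cluster, placed at the middle of each gene; lower panel: the genes to scale in kb from the start of Il1r2, members of the set in blue. Il1r2 and Il1rl1 lie above 0 in all 10 sources, and Il1rl2, next to Il1rl1, lies below 0 in all 10.

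Among the 8 genes, levels over the 30 Treg libraries went together in some pairs and not in others. These values describe libraries that share their source within triplets. Areg and Metrnl had a Pearson's r of 0.862 on log2(CPM + 1), and 0.741 over the 21 libraries outside blood, spleen and lymph node. Penk and Il1r2 had 0.816, which rested on blood and liver, the lowest sources for both: over the other 24 libraries it was 0.225. Metrnl and Il18rap had 0.793, and 0.595 over the same 21 libraries. Penk and Il1rl1 had 0.001, and Il1rl1 and Il18r1, neighbours in the genome, had 0.580.

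**Figure D5:**
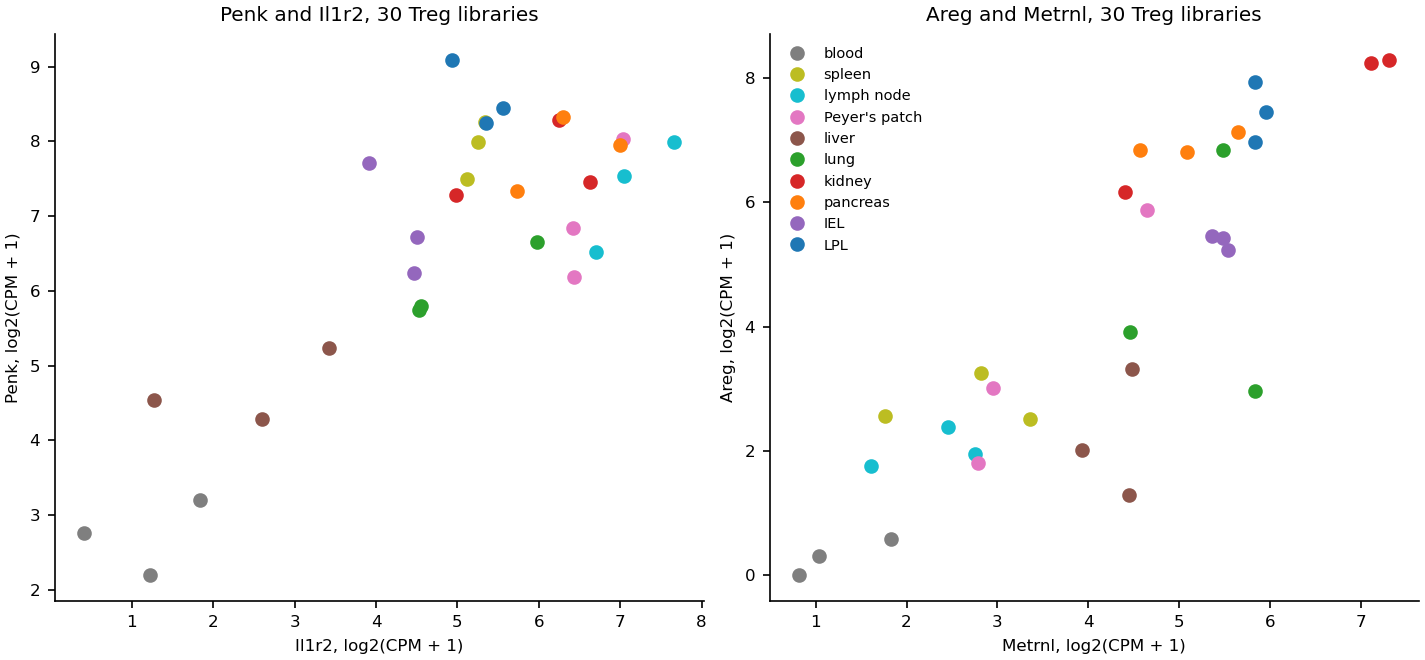
Penk against Il1r2 (left) and Areg against Metrnl (right) in the 30 Treg libraries, both as log2(CPM + 1), coloured by source. On the left, blood and liver lie low on both axes and the other sources form a cloud; on the right, liver and 2 of 3 lung libraries hold Metrnl without a like amount of Areg.

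The genes whose pattern over the 30 Treg libraries of 10 sources was most like that of each gene were read from 9327 genes by Pearson's r on log2(CPM + 1). For Areg these were Nr4a2 (0.966), Junb (0.964) and Bhlhe40 (0.959). For Metrnl they were Id2 (0.929), Cxcr6 (0.924) and Fam110a (0.913), and for Penk Tnfrsf9 (0.914), Tnfsf11 (0.907) and Ebi3 (0.900). Vegfa was most like Gabarapl1 (0.862), Ell2 (0.852) and Hey1 (0.852). Among the receptors, Il1rl1 was most like Lmna (0.903), Myadm (0.880) and Ccr3 (0.860), Il18r1 like S100a11 (0.781), Cxcr3 (0.777) and Plcd1 (0.772), Il18rap like Cd200r4 (0.896), Trafd1 (0.894) and Rab19 (0.894), and Il1r2 like Bcat1 (0.927), Marcksl1 (0.909) and C1qtnf12 (0.863). For none of the 8 was another of the 8 among its 3 most alike genes.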

How the data were processed

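The authors' deposited table holds raw counts per gene, 40 columns of whole numbers, 1 per library. Per the submitters' processing notes, which give no versions, reads went through FastQC, Trim Galore, STAR with the build mm10, featureCounts and MultiQC, and DESeq2 and DESeq are named too. The annotation release and the strand setting are not given in the sources used here, so where 2 genes overlap on opposite strands, their reads cannot be told apart. Per the labels, libraries were made with a QuantSeq 3′ kit. The table's gene IDs were looked up in the reference annotation: 54587 had the same version there, 55154 got a symbol and 267 got none.

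The count test was that of edgeR 4.0.16, run in R 4.3.3: filterByExpr by group, TMM, trended dispersion, robust quasi-likelihood F test and Benjamini-Hochberg adjustment over all genes tested, with 0.05 as the threshold. Comparisons among Treg came from a single model over 30 libraries, in which each source had its mean and sources were averaged with equal weight. Treg and Tconv were compared over 40 libraries with the source as a factor, and within tissues or lymphoid sources with 1 mean for each pair of source and cell type. The scripts were tested on simulated data. An estimate with an SE above 5 on the log2 scale that was not called is given as no estimate. Each SE is the size of the log2 fold change divided by the square root of its F statistic. The 95% intervals take the normal quantile of that SE, so they are somewhat narrower than the F test implies. Depth of 12197980 to 28823493 counts makes 3 counts, the limit that a count of 0 allows, well under 1 CPM.

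The members, gene lists and tests were chosen with earlier results of these data known. Named genes are the 8 members, Foxp3, up to 4 called genes with the smallest p of a list, markers with the highest mean or at 0, and the 3 genes most alike to each member; genes that overlap a member or lie in its cluster were added for their place. Alternatives were DESeq2 1.42.0 (test, size factors), limma 3.58.1 voom with quality weights, no filter, a replicate block, single reference sources, sums per source and leaving out libraries. Figures were drawn with matplotlib 3.10.9.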

Additional observations from a re-analysis of the deposited data

Results flagged for a closer look

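The 9 lymphoid Treg, the 6 tissue Tconv and all 10 Tconv libraries were read for a library far from the rest, 24 pairs of gene and group, and 6 had one, none in lymphoid Treg. Chance flags about 1 in 20 groups of like replicates. These groups mix sources, and the 6 tissue Tconv libraries are among the 10, so the 6 are a description and not a test. Over the 10 Tconv libraries, kidney Tconv stood apart in Areg, at 24.3 CPM, and in Metrnl, at 112 CPM. In the same group, pancreas Tconv stood apart in Penk, at 68.8 CPM, and lung Tconv in Il1rl1, at 75.0 CPM. Lung Tconv also had the most Foxp3 of the Tconv libraries, at 6.66 CPM against 1.34 CPM or less in the others. Within the 6 tissue Tconv libraries, pancreas stood apart in Il18rap, at 14.4 CPM, and LPL in Il1r2, at 23.7 CPM.

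The tissue effect on Il18rap differed between Treg and Tconv by -2.50 on the log2 scale, by the interaction test of edgeR. It differed by -1.14 without lymph node Tconv replicate 8, which takes lymph node Treg out of the difference too.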

How the results depend on the processing

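Leaving out 1 library at a time left the call of 3670 of 3771 member results as it was, 87 lost it and 14 gained it. No called value changed sign, and 10 values of 6 results that were called neither with nor without the library did. The other alternatives left the call of 704 of 861 as it was, 97 lost it, 46 gained it and 14 changed sign with a call on at least 1 side, all with a single reference source. Another 16 changed sign without a call on either side. With lymph node the 14 were Penk in tissue (-0.42) and IEL (-0.42), and Il1r2 in tissue (-2.23), kidney (-1.10), lung (-2.0), pancreas (-0.77), LPL (-1.89) and Peyer's patch (-0.54). With spleen they were Penk in tissue (-0.92), kidney (-0.21), lung (-1.82), pancreas (-0.032) and IEL (-0.92), and with blood Il1r2 in IEL (3.78).

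Counts over the 8 genes and over all genes tested moved by more than 1.5 times as follows, each as the count with the alternative. With limma-voom, all genes were 11190 among the 10 sources, 6116 in tissue, 5330 in kidney, 1412 in liver, 1104 in lung, 4778 in pancreas, 6675 in IEL, 7815 in LPL, 2869 in Peyer's patch, 6714 between gut and solid organs, 1059 between IEL and LPL, 3517 and 2128 between Treg and Tconv in tissues and lymphoid sources, 543 in the difference of tissue effects and 1369 in Tconv. Of the 8, it called 2 lower in liver (all genes: 1.8%), 1 lower in IEL (14.1%) and 3 lower in IEL against LPL (3.27%). In Peyer's patch it called 1 higher (10.9%) and 2 lower (5.09%), and in gut 4 higher (21.8%) and 2 lower (15.6%). It called 1 lower in Treg against Tconv (10.7%) and 2 higher in lymphoid Treg against Tconv (4.43%). It called 0 in the difference of tissue effects (1.11% higher, 1.25% lower) and 1 higher in tissue Tconv (4.52%). DESeq2 called 519 genes in liver, 1089 in Peyer's patch and 160 between IEL and LPL. It called 2947 and 2040 between Treg and Tconv in tissues and lymphoid sources, 586 in the difference of tissue effects and 1079 in Tconv. Of the 8, it called 2 lower in liver (all genes: 1.19%) and 1 lower in IEL against LPL (0.475%). It called 2 lower in the difference of tissue effects (1.58%) and 6 higher in tissue Tconv (6.32%). Without the filter, 19 genes were called between IEL and LPL and 18 in Tconv. Of the 8, 2 were higher in liver (all genes: 0.638%), 0 lower in Peyer's patch (0.233%) and 0 called in the difference of tissue effects (0.167% higher, 0.415% lower).

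With blood alone as the reference, 2122 genes were called in tissue, 1587 in kidney, 19 in liver, 2399 in IEL and 3186 in LPL, and 1 of the 8 was higher in liver (all genes: 0.106%). With spleen alone, 1377 genes were called in tissue, 1029 in kidney, 1300 in lung, 369 in pancreas, 1408 in IEL, 2242 in LPL and 151 in Peyer's patch. Of the 8, 2 were lower in liver (all genes: 0.553%), 1 lower in lung (2.7%), and 0 higher (0.586%) and 0 lower (0.257%) in Peyer's patch. The counts of higher genes by tissue are given above with their shares (3 in kidney, 0 in liver, 2 in lung, 3 in pancreas, 2 in IEL, 3 in LPL). With lymph node alone, 417 genes were called in liver, 542 in lung and 999 in pancreas. Of the 8, 5 were higher in kidney (all genes: 6.58%), 2 in liver (1.39%), 3 in pancreas (3.12%) and 0 in Peyer's patch (1.95%). Lower were 1 each in tissue (9.41%), lung (1.18%), IEL (8.98%) and LPL (10.1%), 2 in liver (0.938%) and 0 in Peyer's patch (1.26%). Counts summed per source, 6 against 3, gave 0 of the 8 and 0 genes in all. Without kidney, lung and Peyer's patch Treg replicate 1 together, chosen after seeing the data, 464 genes were called in liver, 3352 in lung, 2683 in pancreas and 201 between IEL and LPL. Of the 8, 1 was lower in liver (all genes: 0.49%) and 1 in IEL (9.25%). In Peyer's patch 1 was higher (2.23%) and 2 lower (0.97%). Lower were also 2 in gut (11.3%) and 2 in IEL against LPL (0.701%).

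Leaving out 1 library gave 1 to 52 genes between IEL and LPL, 2441 to 4489 in IEL, 351 to 1212 in Peyer's patch, 1597 to 3562 in kidney, 52 to 437 in liver, 1011 to 2561 in pancreas, 664 to 1480 between lymphoid Treg and Tconv, 120 to 311 in the difference of tissue effects and 0 to 111 in Tconv. Of the 8, 3 to 6 were higher in IEL, 1 to 5 in Peyer's patch, 1 to 3 in gut, 1 to 4 in liver and 0 to 2 in tissue Tconv, and 0 to 1 were lower in each of liver, IEL, Peyer's patch, IEL against LPL and the difference of tissue effects.

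Same-numbered libraries did not deviate alike on average. Deviations from the source means in 58 same-numbered pairs had a mean r of -0.025 (-0.473 to 0.195) against 0.0048 in 347 other pairs. Of 28 libraries, 7 were closest to one of their own number, and the number that chance would give was not computed. Deviations within sources of 3 libraries, some with 1 library apart, cannot show whether same-numbered libraries share a mouse. With the replicate block, 3416 genes were called among the sources, 1595 in tissue, 989 in kidney, 8 in liver, 470 in pancreas, 1504 in IEL, 2310 in LPL, 152 in Peyer's patch and 2173 between gut and solid organs. Of the 8, 0 were higher in liver (all genes: 0.0279%), 2 higher (0.726%) and 0 lower (0.123%) in Peyer's patch and 1 higher in gut (6.37%).

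Each Tconv source rests on a lone library, so a single library can decide a Tconv result, and the low counts of Vegfa limit what depth can show for it.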

Other observations

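Other genes of the same pathways also differed between Treg and Tconv within sources, where 9.88% of all genes tested were higher in Treg and 7.28% lower, with a median log2 fold change of 0.00. Of the genes known from ST2-positive tissue Treg, 9 of 10 were higher in Treg and none lower, with a median of 1.46. Among them, the transcription factor Gata3 was higher by 1.29 ± 0.13 on the log2 scale and Klrg1, a receptor for cadherins, by 4.39 ± 0.49. That list was written with earlier results of these data known and is not independent evidence of a direction. Of the early response genes, 5 of 23 were higher in Treg and none lower, with a median of 0.36. The phosphatase gene Dusp1 was among them, at 1.38 ± 0.35. Of the VEGF family, the co-receptor Nrp1 was higher in Treg, at 3.17 ± 0.34, and 1 other of the 5 tested was lower, the receptor Kdr.

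Of 10 other growth and repair factors tested, 4 were higher in Treg and 1 lower, with a median of 0.55. Hepatocyte growth factor, Hgf, gave 4.62 ± 0.91 and Tgfb1 0.52 ± 0.11. Of 15 hypoxia-inducible genes, 5 were higher, among them Hif1a at 0.90 ± 0.14, and Pdk1 was lower, at -0.81 ± 0.16. Of 18 genes of IL-1 family signalling, 4 were higher and 1 lower, with Mapkapk2 at 0.79 ± 0.10 and Mapk14, a p38 kinase, at -0.27 ± 0.07. Markers of CD8, gamma delta T and NK cells moved the other way, with 3 of 6 lower in Treg and none higher, and their part in these differences was not tested.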
